A study of Homo sapiens with 3 samples.

Results

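The 10 genes described here encode receptor tyrosine kinases of relevance in thyroid cancer: EGFR, ERBB2, ERBB3, MET, AXL, IGF1R, INSR, FGFR1, RET and DDR1. They were taken by gene symbol from a table of 58333 genes measured by RNA-seq in Cal62, a human thyroid tumor cell line. The study asked how silencing of ADAR1, an enzyme that edits adenosine to inosine in double-stranded RNA, alters gene expression in these cells. Cells had been transfected with a control siRNA (siControl) or with either of 2 siRNAs against ADAR1 (siADAR1 #1 and siADAR1 #2). Poly(A)+ RNA of 2 libraries per siRNA was sequenced, taken here as the 2 independent biological replicates of the study's methods. Below, a transfection means such an siRNA condition with both of its replicates. No group was left untransfected, and all 6 libraries come from this single cell line.

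Receptor tyrosine kinases span the plasma membrane and bind growth factors outside the cell. Binding brings receptors together, their kinase domains phosphorylate tyrosines, and docked adaptor proteins pass the signal to the RAS-MAPK and PI3K-AKT pathways. In thyroid cancer RET is known for gene fusions and point mutations, and MET, EGFR, AXL and the insulin-like growth factor receptor have been studied as drivers of growth, invasion or resistance to kinase inhibitors.

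Libraries held between 30114840 and 50029763 reads on genes, and 3 reads corresponded to between 2.81 and 4.39 normalized counts. A normalized count is a read count divided by the size factor of its library. The targeted gene ADAR (ENSG00000160710) had 10906 and 11701 normalized counts in siControl, 1328 and 2246 with siADAR1 #1, and 1663 and 2928 with siADAR1 #2. Its level fell to 15.8% of siControl with siADAR1 #1 (log2FC -2.71, SE 0.30, adjusted p = 0.00355, limma) and to 20.3% with siADAR1 #2 (log2FC -2.35, SE 0.30, adjusted p = 0.00153). The log2FC is a difference of the deposited log2 values, the SE is its standard error in limma's fit, and adjusted p-values are Benjamini-Hochberg values over the 20247 genes that passed a filter at a mean of 10 normalized counts. A gene was called changed at an adjusted p-value under 0.05 with a log2FC beyond 0.5 in either direction.

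Of 9 markers of thyroid follicular cells, 6 passed the filter. NKX2-1 had 0 reads in every library, and SLC5A5 had at most 15 reads. The summed level of these 9 markers, most of it PAX8, was 16310 to 18159 normalized counts in siControl, 12875 to 17813 with siADAR1 #1 and 4701 to 7486 with siADAR1 #2. The sum of 5 epithelial markers was 74103 to 92785, 102317 to 106204 and 67785 to 77725. For 5 fibroblast markers it was 5831 to 7175, 3365 to 3971 and 2863 to 3993, nearly all of it COL1A1, with DCN and LUM at no more than 6 reads. The 4 leukocyte markers summed to at most 124 and the 3 endothelial markers to at most 62.1, and CD3E had 0 reads in every library. The part of these marker differences in the results below was not tested.

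All 10 receptor genes passed the filter. With siADAR1 #1, MET was upregulated and EGFR and IGF1R were downregulated. With siADAR1 #2, MET and ERBB3 were upregulated. The 3 of 10 called with siADAR1 #1 compare with 17.4% of all genes tested, and the 2 of 10 called with siADAR1 #2 with 27.5%, so the shares of the receptors lay near those of all genes. By direction, 6.39% of all genes were called higher and 11.0% lower with siADAR1 #1, and 11.6% and 16.0% with siADAR1 #2. The higher calls with siADAR1 #1 were 36.8% of all its calls, against 52.9% with median-centred libraries and 48.0% after quantile normalization. The median log2FC of the 10 receptors was 0.02 with siADAR1 #1 and -0.11 with siADAR1 #2, beside -0.03 and -0.02 over all genes tested. The libraries of siADAR1 #1 did not overlap siControl for 5 receptors, MET, AXL and DDR1 above and EGFR and IGF1R below, against 61.8% of all genes. Those of siADAR1 #2 did not overlap it for 6, MET, ERBB3 and RET above and EGFR, ERBB2 and INSR below, against 68.1% of all genes. For RET the separation rests on 26 reads in siADAR1 #2 replicate 1 against 25 in siControl replicate 2. Both comparisons use the same siControl libraries. In bulk RNA, fewer cells of a type and less RNA per cell cannot be told apart.

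**Figure D1:**
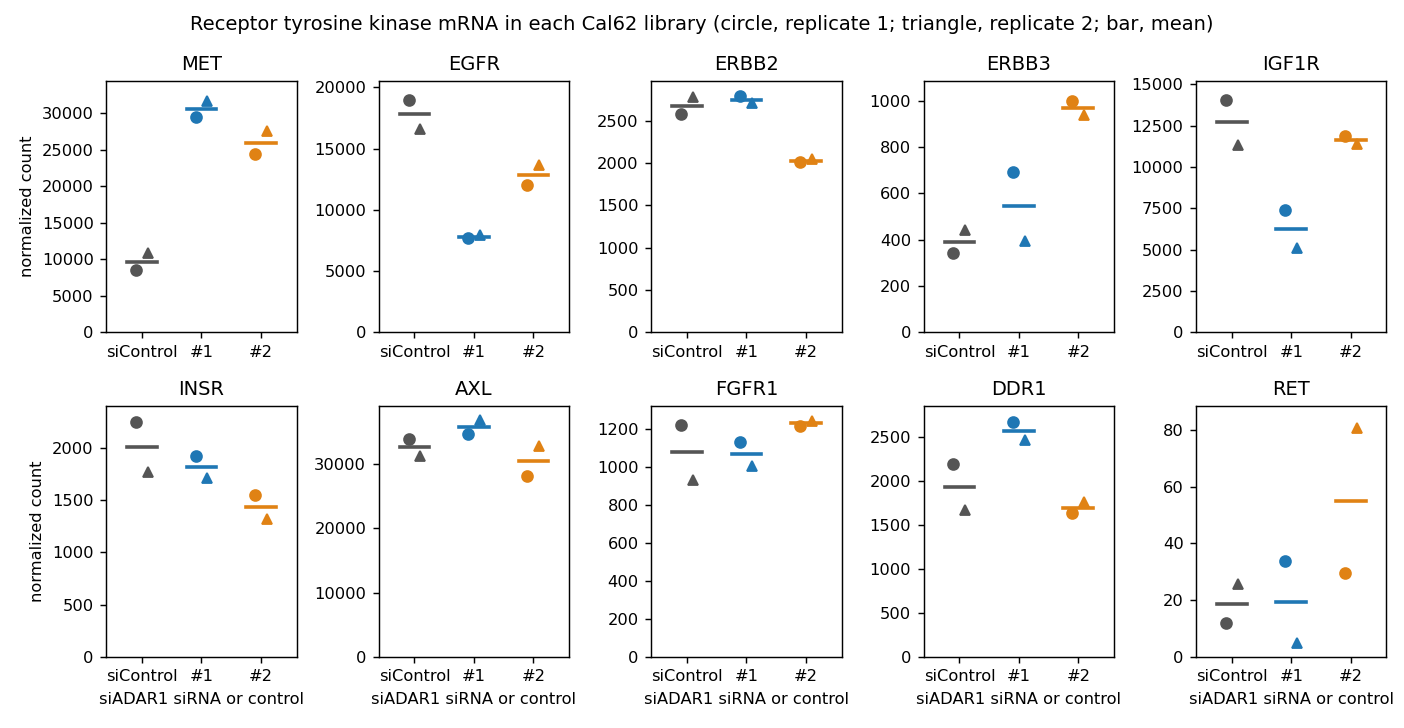
Normalized counts (vertical axes, each starting at 0) of the 10 receptor genes in the 6 Cal62 libraries, with circles for replicate 1, triangles for replicate 2 and bars for the mean of the 2 libraries of a transfection. MET lay between 24364 and 31603 in the 4 siADAR1 libraries and at 8477 and 10869.9 in siControl, while EGFR lay lower in every siADAR1 library than in siControl.

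Sequence before the transcription start was available for 8 of the 10 genes in the RefSeq promoters of GRCh38.p14, which cover 250 bases before to 50 bases after a start; ERBB3 and FGFR1 had no entry. With 1 promoter per gene, that nearest to the annotated start, 6 of 8 held GGGCGG on either strand, the core of the GC box bound by factors of the SP1 family, against 45.0% of 35116 promoters of the same length. These 35116 include alternative promoters of the same gene, so here and below they were not chosen in the same way. The promoter taken for DDR1 lay 4549 bases from the annotated start and held no GGGCGG, while some of its other promoters did. TATAAA was found in 0 of 8 (11.5% of all), and TGANTCA, the core of the AP-1 site, in 1 of 8, that of ERBB2 (7.71% of all). The GC content was between 60.7% and 79.7%, and the median of all promoters was 58.7%. Such matches are a description of the letters in these windows. The stretches below belong to the 3 receptors called with siADAR1 #1, are all read on the + strand, and carry GGGCGG, or CCGCCC where it lies on the opposite strand, in capitals. The leftmost capital lies 95 bases before the start in MET (chr7:116672089-116672118), 36 bases in EGFR (chr7:55018969-55018998) and 192 bases in IGF1R (chr15:98648335-98648364).
MET: ggacggcaggaaGGGCGGgggccgatttcc
EGFR: tccctcctcctcCCGCCCtgcctccccgcg
IGF1R: ggcgggagatggGGGCGGcgcctcgcagtc

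MET (ENSG00000105976, chromosome 7, 116672196 to 116798377, + strand, GRCh38) encodes the receptor of hepatocyte growth factor, which drives cell scattering and invasive growth. It had 8477 and 10869.9 normalized counts in siControl, 29404 and 31603 with siADAR1 #1, and 24364 and 27499.6 with siADAR1 #2. Every siADAR1 library lay above both siControl libraries. MET was upregulated 3.18-fold with siADAR1 #1 (log2FC 1.67, SE 0.14, adjusted p = 0.00268) and 2.70-fold with siADAR1 #2 (log2FC 1.43, SE 0.14, adjusted p = 0.000619). Between the siRNAs the log2FC was -0.24 (SE 0.14, adjusted p = 0.228). With any single library left out, the log2FC stayed between 1.49 and 1.85 for siADAR1 #1 and between 1.25 and 1.61 for siADAR1 #2, and both calls held.

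EGFR (ENSG00000146648, chromosome 7, 55019017 to 55211628, + strand) encodes the receptor of epidermal growth factor and its relatives. Its normalized counts were 18973 and 16635 in siControl, 7659 and 7940.1 with siADAR1 #1, and 12019 and 13624 with siADAR1 #2. The 3 transfections did not overlap, with siADAR1 #1 lowest and siADAR1 #2 in between. EGFR fell to 43.8% of siControl with siADAR1 #1 (log2FC -1.19, SE 0.12, adjusted p = 0.0029). With siADAR1 #2 its log2FC was -0.47 (SE 0.12, adjusted p = 0.0191), under the limit on the fold, and 30.5% of all genes had an adjusted p-value under 0.05 in this comparison without that limit. Leaving out siControl replicate 2 or siADAR1 #2 replicate 2 put this log2FC past the limit, at -0.57 and -0.56. Other alternatives made it smaller, and over the main fit and all alternatives it lay between -0.57 and -0.33. The direct comparison placed EGFR 1.64-fold higher with siADAR1 #2 than with siADAR1 #1 (log2FC 0.71, SE 0.12, adjusted p = 0.00281).

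The ratio of EGFR to MET normalized counts, not corrected for length, was 2.24 and 1.53 in siControl. It was 0.26 and 0.251 with siADAR1 #1, and 0.493 and 0.495 with siADAR1 #2. EGFR counts thus exceeded MET counts in both siControl libraries and lay below them in all 4 siADAR1 libraries. The order in siControl depends on length. Per kilobase of annotated exons, the siControl mean was 1339 for MET and 1117 for EGFR, with overlapping library ranges.

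ERBB2 (ENSG00000141736, chromosome 17, 39687914 to 39730426, + strand) has no known ligand of its own and is the preferred partner of the other receptors of the EGFR family. Its normalized counts were 2581 and 2775 in siControl, 2789 and 2704.5 with siADAR1 #1, and 2006 and 2049 with siADAR1 #2. The siADAR1 #1 libraries overlapped siControl (log2FC 0.04, SE 0.11, adjusted p = 0.856), whereas both siADAR1 #2 libraries lay below it. That difference had an adjusted p-value of 0.0327 and a log2FC of -0.40 (SE 0.11), under the limit on the fold. The log2FC of siADAR1 #2 against siADAR1 #1 was -0.44 (SE 0.11, adjusted p = 0.0195), under the same limit, and -0.54 (adjusted p = 0.0112), past it, with median-centred libraries. Over the main fit and all alternatives it lay between -0.54 and -0.37. The log2FC of siADAR1 #2 against siControl lay between -0.45 and -0.25, never past the limit.

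ERBB3 (ENSG00000065361, chromosome 12, 56076799 to 56103505, + strand) binds neuregulins, has little kinase activity of its own, and recruits PI3K when paired with ERBB2. It had 342 and 441 normalized counts in siControl, 694 and 394 with siADAR1 #1, and 1001 and 940.4 with siADAR1 #2. The libraries of siADAR1 #1 stood on either side of the higher siControl library, and those of siADAR1 #2 were above all others. ERBB3 was upregulated 2.49-fold with siADAR1 #2 (log2FC 1.32, SE 0.27, adjusted p = 0.00926). This call was lost without siControl replicate 1 (log2FC 1.13, adjusted p = 0.08) and without siADAR1 #2 replicate 1 (log2FC 1.27, adjusted p = 0.0571). With siADAR1 #1 the log2FC was 0.43 (SE 0.27, adjusted p = 0.315), and without replicate 2 of siADAR1 #1 it was 0.83 (adjusted p = 0.0401). An annotated gene on the same strand, ENSG00000257411, overlaps ERBB3 and had up to 297 reads in a library, against 314 reads in the ERBB3 library with the fewest, so counting could split reads between them. The ratio of ERBB3 to ERBB2 normalized counts was 0.132 and 0.159 in siControl, 0.249 and 0.146 with siADAR1 #1, and 0.499 and 0.459 with siADAR1 #2.

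IGF1R (ENSG00000140443, chromosome 15, 98648539 to 98964530, + strand) encodes the receptor of the insulin-like growth factors, which signals through the insulin receptor substrates. Its normalized counts were 14024 and 11353 in siControl, 7382 and 5095 with siADAR1 #1, and 11863 and 11387 with siADAR1 #2. The siADAR1 #1 libraries lay below all others, and those of siADAR1 #2 lay within the siControl range. IGF1R fell to 49.2% of siControl with siADAR1 #1 (log2FC -1.04, SE 0.19, adjusted p = 0.0106), and its log2FC with siADAR1 #2 was -0.12 (SE 0.19, adjusted p = 0.676). The call with siADAR1 #1 was lost without siControl replicate 1 (log2FC -0.89, adjusted p = 0.0875) and when the spread was modelled without a trend (adjusted p = 0.06). Directly compared, IGF1R was 1.89-fold higher with siADAR1 #2 than with siADAR1 #1 (log2FC 0.92, SE 0.19, adjusted p = 0.00676).

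INSR (ENSG00000171105, chromosome 19, 7112255 to 7294414, - strand), the insulin receptor, is the closest relative of IGF1R among the 10. It had 2247 and 1776 normalized counts in siControl, 1929 and 1716 with siADAR1 #1, and 1556 and 1319.8 with siADAR1 #2. Only the siADAR1 #2 libraries lay below both siControl libraries, and INSR passed the test with neither siRNA. Its log2FC was -0.13 (SE 0.16, adjusted p = 0.617) with siADAR1 #1 and -0.48 (SE 0.16, adjusted p = 0.0609) with siADAR1 #2. The ratio of IGF1R to INSR counts was 6.24 and 6.39 in siControl, 3.83 and 2.97 with siADAR1 #1, and 7.63 and 8.63 with siADAR1 #2.

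AXL (ENSG00000167601, chromosome 19, 41219223 to 41261766, + strand), the receptor of GAS6, belongs to the TAM family and is associated with mesenchymal states. Its normalized counts were 33963 and 31317 in siControl, 34718 and 36824 with siADAR1 #1, and 28233 and 32839 with siADAR1 #2. The log2FC was 0.13 (SE 0.11, adjusted p = 0.462) with siADAR1 #1, whose libraries lay above siControl, and -0.10 (SE 0.11, adjusted p = 0.556) with siADAR1 #2, whose libraries overlapped siControl. Quantile normalization turned the latter to 0.08.

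FGFR1 (ENSG00000077782) encodes a receptor of fibroblast growth factors. It had 1219 and 933 normalized counts in siControl, 1131 and 1004 with siADAR1 #1, and 1217 and 1244 with siADAR1 #2, and the siRNA libraries overlapped siControl. Its log2FC was -0.0016 (SE 0.16, adjusted p = 0.996) and 0.21 (SE 0.16, adjusted p = 0.394). LETM2 overlaps FGFR1 on the opposite strand and had up to 2577 reads in a library, against 799 reads in the FGFR1 library with the fewest. The sources used here do not give the counting tool behind these values or its strand setting. Reads of these genes may therefore not be told apart.

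DDR1 (ENSG00000204580, chromosome 6, 30876421 to 30900156, + strand) is a receptor activated by collagen. Its normalized counts were 2188 and 1663 in siControl, 2666 and 2466 with siADAR1 #1, and 1633 and 1758 with siADAR1 #2. Libraries of siADAR1 #1 lay above all others. DDR1 did not pass the test against siControl with siADAR1 #1 (log2FC 0.43, SE 0.16, adjusted p = 0.101) or siADAR1 #2 (log2FC -0.17, SE 0.16, adjusted p = 0.46). With siADAR1 #1 it was past both limits with median-centred libraries (log2FC 0.57, adjusted p = 0.0432) and after quantile normalization (log2FC 0.51, adjusted p = 0.0378). Between the siRNAs, DDR1 was lower with siADAR1 #2 (log2FC -0.60, SE 0.16, adjusted p = 0.0202). That call was lost without siADAR1 #1 replicate 1 (adjusted p = 0.0863), without siADAR1 #2 replicate 1 (adjusted p = 0.103), without siADAR1 #2 replicate 2 (adjusted p = 0.0561) and without a trend (adjusted p = 0.0645).

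RET (ENSG00000165731, chromosome 10, 43077064 to 43130351, + strand), the receptor of the GDNF family, is characteristic of parafollicular C cells in the normal thyroid. It was at 12.0 and 25.5 normalized counts in siControl, 33.7 and 5.0 with siADAR1 #1, and 29.5 and 80.6 with siADAR1 #2, from 4 to 55 reads in a library. Libraries of the same transfection lay far apart, and RET passed no test (log2FC -0.30, SE 0.80, adjusted p = 0.834 with siADAR1 #1; log2FC 1.36, SE 0.80, adjusted p = 0.244 with siADAR1 #2).

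**Figure D2:**
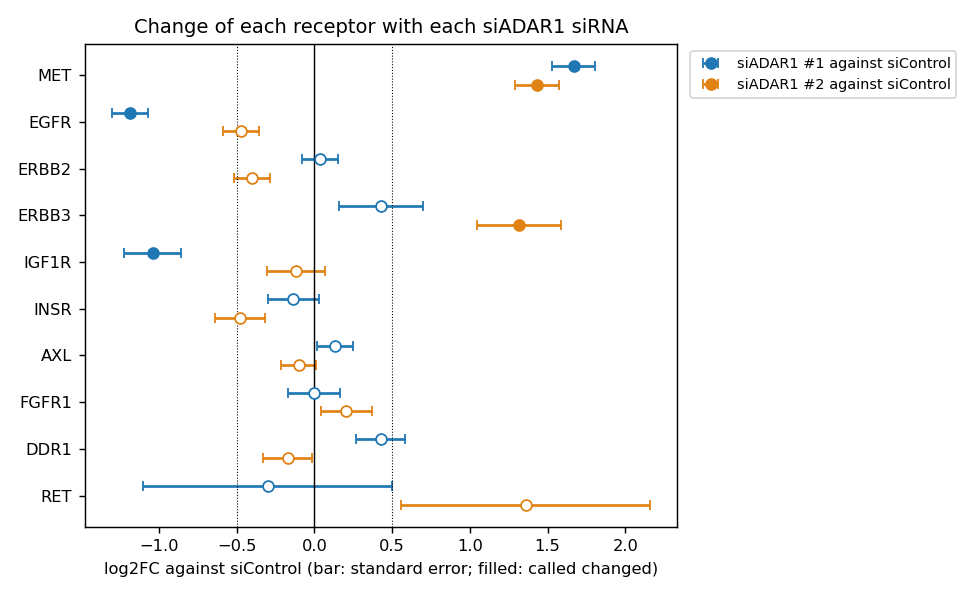
The log2FC of each receptor gene against siControl (horizontal axis) with siADAR1 #1 in blue and siADAR1 #2 in orange, with bars for the standard error of limma's fit, filled points for genes called changed and dotted lines at a log2FC of 0.5 in either direction. MET is the only one of the 10 genes with filled points for both siRNAs, at 1.67 and 1.43.

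In the direct comparison of siADAR1 #2 with siADAR1 #1, 4 of 10 receptors were called, against 33.7% of all genes tested. EGFR, IGF1R and ERBB3 were higher with siADAR1 #2 and DDR1 was lower. By direction, 17.3% of all genes were called higher and 16.5% lower, and 37.6% had an adjusted p-value under 0.05 without the limit on the fold, as did ERBB2 besides these 4. The ERBB3 difference (log2FC 0.89, SE 0.27, adjusted p = 0.0351) was the least stable of these. It was 0.48 without siADAR1 #1 replicate 2 (adjusted p = 0.132), and its adjusted p-value was 0.0577 and 0.0586 without siControl replicates 1 and 2, and 0.134 and 0.0945 without siADAR1 #2 replicates 1 and 2. With no filter, either other scaling, no trend or a fit of only the 4 libraries compared, it was between 0.056 and 0.086. Without siADAR1 #1 replicate 1, RET was called instead of DDR1 (log2FC 2.81, adjusted p = 0.0295). For the other receptors not yet compared, the log2FC was -0.34 for INSR (adjusted p = 0.137), 1.66 for RET (adjusted p = 0.144), -0.23 for AXL (adjusted p = 0.148) and 0.21 for FGFR1 (adjusted p = 0.368).

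When the 4 siADAR1 libraries were taken as 1 group, 0 of the 10 receptors and 0.0% of all genes were called by limma. An unadjusted p-value under 0.05 was found for 2 receptors, MET and EGFR, and for 14.2% of all genes tested. MET had a log2FC of 1.55 (SE 0.17, adjusted p = 0.0881) and EGFR of -0.83 (SE 0.27, adjusted p = 0.259). These were also the receptors whose 4 siADAR1 libraries did not overlap siControl, MET above and EGFR below, as did 29.0% of all genes in either direction. In the fit with 3 groups, the average of the changes with the siRNAs gave 4 calls of 10, MET, EGFR, ERBB3 and IGF1R, against 17.8% of all genes. Over all genes this grouping gave 1 call by voom on the recovered reads and 4 calls without a trend, none of them a receptor described here.

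Levels of different genes were compared per kilobase of annotated exons. This length joins all annotated exons of a gene, and the order of the genes depends on it. In siControl AXL had the highest level, 6358 ± 364 normalized counts per kilobase (SD, n = 2), followed by MET with 1339 ± 234, EGFR with 1117 ± 104, IGF1R with 910.2 ± 135, ERBB2 with 259 ± 13.3, DDR1 with 211 ± 40.7, INSR with 186 ± 30.7, FGFR1 with 62.6 ± 11.7, ERBB3 with 33.4 ± 5.96 and RET with 2.09 ± 1.07. The library ranges of MET and EGFR overlapped, as did those of DDR1 and INSR, and the other neighbours in this order did not. Among 58 receptor tyrosine kinases, AXL ranked 1, MET 3, EGFR 4 and IGF1R 5, with EPHA2 ranked 2, and AXL alone made up 40.9% of the summed level. The 10 genes together made up 67.5% of the sum in siControl, 66.1% with siADAR1 #1 and 71.0% with siADAR1 #2.

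With siADAR1 #1, AXL was at 6968 ± 290 per kilobase and MET at 4223 ± 215, which ranked 2 of 58. EGFR was at 489 ± 12.5 and IGF1R at 447 ± 116, ranking 6 and 7 with overlapping ranges. With siADAR1 #2, AXL was at 5948 ± 634, MET at 3590 ± 307 and ranked 2, IGF1R at 834 ± 24.2 and EGFR at 804 ± 71.2, the last 2 again with overlapping ranges. AXL thus stood 4.75-fold above MET in siControl, 1.65-fold with siADAR1 #1 and 1.66-fold with siADAR1 #2. ERBB3 stood below FGFR1 in siControl, overlapped it with siADAR1 #1, and stood above it with siADAR1 #2 at 82.9 ± 3.68 against 71.5 ± 1.1. The last order rests on the annotated lengths, 11711 bases for ERBB3 and 17201 for FGFR1. Before division by length, the mean with siADAR1 #2 was 971 normalized counts for ERBB3 and 1230 for FGFR1. Reads of FGFR1 may also include those of LETM2.

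**Figure D3:**
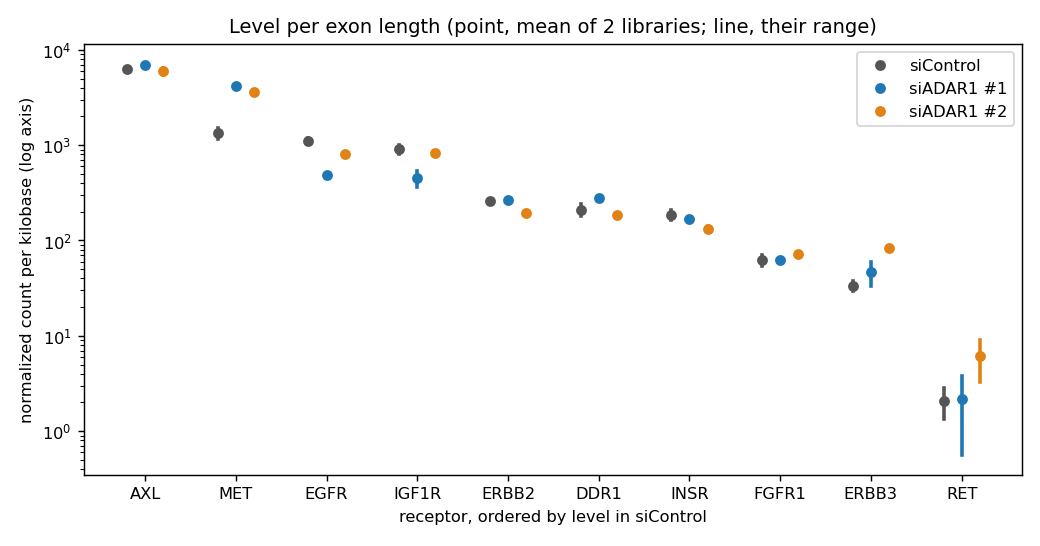
Level of each receptor gene as normalized counts per kilobase of annotated exons (vertical log axis), ordered by the siControl mean, with points for the mean of the 2 libraries of a transfection and lines for their range. AXL is highest in all 3 transfections, and MET moves from 1339 in siControl to 4223 and 3590 with siADAR1 #1 and siADAR1 #2.

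Other genes of the receptor system were taken from lists for ligands, co-receptors, adaptors, regulators and the remaining receptors. The counts of each list stand beside 17.4% of all genes tested called with siADAR1 #1 (6.39% higher and 11.0% lower) and 27.5% with siADAR1 #2 (11.6% and 16.0%), and nothing particular to a list is read from them. Of 8 ligands of the EGFR and ERBB receptors that passed the filter, 1 was upregulated with siADAR1 #1 and none was downregulated, while 2 were upregulated and 1 downregulated with siADAR1 #2. HBEGF, a heparin-binding ligand of EGFR, had 3257 and 3215 normalized counts in siControl, 5460 and 8471 with siADAR1 #1, and 1304 and 1238 with siADAR1 #2. It was upregulated with siADAR1 #1 (log2FC 1.07, SE 0.20, adjusted p = 0.0113) and downregulated with siADAR1 #2 (log2FC -1.35, SE 0.20, adjusted p = 0.00228). The former call was lost without siControl replicate 1 (adjusted p = 0.0842), without siControl replicate 2 (adjusted p = 0.0753) and without a trend (adjusted p = 0.0593). AREG, the ligand amphiregulin, had 34.7 to 47.7 normalized counts in siControl and siADAR1 #1 libraries and 269 and 237 with siADAR1 #2 (log2FC 2.68, SE 0.25, adjusted p = 0.000561). EGF rose with siADAR1 #2 from 43.6 and 47.9 to 136 and 86.4 (log2FC 1.20, adjusted p = 0.0264), a call lost without siControl replicate 1 (adjusted p = 0.123), siControl replicate 2 (adjusted p = 0.0898) or siADAR1 #2 replicate 1 (adjusted p = 0.167) and after quantile normalization (adjusted p = 0.0506).

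Among 11 tested ligands of the other receptors, 0 were upregulated and 2 downregulated with siADAR1 #1, against 4 and 1 with siADAR1 #2, in all 2 and 5 of 11 beside 17.4% and 27.5% of all genes. The list's median log2FC was -0.53 and 0.57, beside -0.03 and -0.02 over all genes. For the ligands of the EGFR and ERBB receptors it was 0.60 and 0.35. FGF1, a ligand of fibroblast growth factor receptors, had 55.5 and 83.6 normalized counts in siControl, 14.0 and 17.6 with siADAR1 #1, and 286 and 209 with siADAR1 #2. It was downregulated with the former (log2FC -1.96, SE 0.32, adjusted p = 0.00833) and upregulated with the latter (log2FC 1.81, SE 0.32, adjusted p = 0.00508). The fall was no longer called without siControl replicate 1 (adjusted p = 0.0519) or siControl replicate 2 (adjusted p = 0.0597). FGF2 was upregulated with siADAR1 #2 (log2FC 0.83, adjusted p = 0.0123), which was lost without siControl replicate 1 (adjusted p = 0.0776), siControl replicate 2 (adjusted p = 0.0672) or siADAR1 #2 replicate 2 (adjusted p = 0.0673) and without a trend (adjusted p = 0.0512). With siADAR1 #1 its log2FC was -0.62 (adjusted p = 0.0529), which passed the test at a filter of 50 (adjusted p = 0.0387), with robust eBayes (adjusted p = 0.0417), in a fit of only the 4 libraries compared (adjusted p = 0.0453), and without siADAR1 #1 replicate 2 (log2FC -0.79, adjusted p = 0.0397) or either siADAR1 #2 library (adjusted p = 0.0443 and 0.0444). PSPN, the RET ligand persephin, was upregulated with siADAR1 #2 from 158 and 165 to 344 and 325 (log2FC 1.04, adjusted p = 0.00689), with an adjusted p-value of 0.0529 without siADAR1 #2 replicate 1.

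Of 14 tested co-receptors and ligand-binding proteins, 2 were upregulated and 2 downregulated with siADAR1 #1 (17.4% of all genes called), and 3 and 3 with siADAR1 #2 (27.5% of all genes). IGF2R, which binds IGF2 and carries it to lysosomes, had 12846 and 10112 normalized counts in siControl, 8479 and 8627 with siADAR1 #1, and 28139.9 and 22976 with siADAR1 #2, where it was upregulated (log2FC 1.16, SE 0.15, adjusted p = 0.00151). SDC1, a heparan sulfate proteoglycan that binds growth factors, was downregulated with siADAR1 #2 (log2FC -0.89, SE 0.14, adjusted p = 0.00302). IGFBP3, a binding protein of insulin-like growth factors, had 4 reads and 1 read in siControl, 29 and 7 with siADAR1 #1, and 162 and 37 with siADAR1 #2. It was called higher with siADAR1 #2 (adjusted p = 0.0035), and its fold rests on the few siControl reads.

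Adaptors and docking proteins had 25 tested genes, with 6 upregulated and 4 downregulated for siADAR1 #1 (10 of 25, beside 17.4% of all genes) and 5 and 4 for siADAR1 #2 (9 of 25, beside 27.5%). CRK, an adaptor downstream of several receptors, was upregulated with both siRNAs, from 4104 and 4868 normalized counts in siControl to 9990.2 and 8775 (log2FC 1.07, SE 0.13, adjusted p = 0.004) and 8819 and 7963 (log2FC 0.91, SE 0.13, adjusted p = 0.00228). IRS2, a docking protein of the insulin and IGF1 receptors, was upregulated with siADAR1 #2 (log2FC 1.51, SE 0.16, adjusted p = 0.000856) and had a log2FC of -0.53 (adjusted p = 0.0611) with siADAR1 #1. The latter passed the test at a filter of 50 (adjusted p = 0.0454). NCK2, an adaptor that links receptors to the actin cytoskeleton, was downregulated with siADAR1 #2 (log2FC -2.14, SE 0.24, adjusted p = 0.000914), from 1065 and 1056 to 184 and 308 normalized counts.

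Of 22 tested negative regulators, 5 were upregulated and 1 downregulated with siADAR1 #1 (6 of 22, beside 17.4% of all genes), and 4 and 6 with siADAR1 #2 (10 of 22, beside 27.5%). PTPN1, a phosphatase that acts on receptors such as those of insulin, EGF and HGF, was upregulated with both siRNAs, from 4343 and 4481 normalized counts to 9997 and 9522 (log2FC 1.14, SE 0.10, adjusted p = 0.00279) and 12626 and 11671 (log2FC 1.46, SE 0.10, adjusted p = 0.000346). RNF41, an E3 ubiquitin ligase that acts on ERBB3, was upregulated from 1478 and 1641 to 3197 and 2977 with siADAR1 #1 and to 3270.3 and 2916 with siADAR1 #2, with a log2FC of 0.99 and an SE of 0.13 for each (adjusted p = 0.00441 and 0.00149). The former was lost without siControl replicate 1 (log2FC 0.91, adjusted p = 0.0537). SH3KBP1, an adaptor of CBL in receptor endocytosis, was downregulated with siADAR1 #2 (log2FC -1.71, SE 0.19, adjusted p = 0.000865).

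All 15 genes of receptor shedding and endocytosis were tested, with 1 upregulated and 2 downregulated for siADAR1 #1 (17.4% of all genes called) and 3 and 2 for siADAR1 #2 (27.5% of all genes). CAV1 and CAV2 encode caveolins and lie beside MET on chromosome 7, with CAV2 at 116287380 to 116508541 and CAV1 at 116524994 to 116561179. CAV1 had 17497 and 13171 normalized counts in siControl, 4111 and 4360.1 with siADAR1 #1, and 12050.4 and 13063 with siADAR1 #2. It was downregulated with siADAR1 #1 (log2FC -1.84, SE 0.15, adjusted p = 0.00247), and its log2FC with siADAR1 #2 was -0.27 (adjusted p = 0.201). CAV2 was upregulated with siADAR1 #2 (log2FC 0.80, SE 0.15, adjusted p = 0.0061) and had a log2FC of 0.09 (adjusted p = 0.712) with siADAR1 #1. Of the 3 neighbours, MET and CAV2 were thus both called higher with siADAR1 #2, and with siADAR1 #1 MET was called higher and CAV1 lower. RAB5A, a small GTPase of early endosomes, was downregulated with siADAR1 #2 (log2FC -0.88, SE 0.14, adjusted p = 0.00294).

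The remaining receptor tyrosine kinases had 29 of 48 genes tested, of which 7 were upregulated and 1 downregulated with siADAR1 #1 (6.39% and 11.0% of all genes), and 4 and 2 with siADAR1 #2 (11.6% and 16.0% of all genes). MST1R, the closest relative of MET, had 50.1 and 41.8 normalized counts in siControl, 15.0 and 41.5 with siADAR1 #1, and 764 and 483 with siADAR1 #2, where it was upregulated (log2FC 3.66, SE 0.45, adjusted p = 0.00128). Its log2FC with siADAR1 #1 was -0.80 (adjusted p = 0.26), and -1.47 (adjusted p = 0.0375) without siADAR1 #1 replicate 2. EPHA5, an ephrin receptor, was upregulated with siADAR1 #2 from 38.1 and 33.7 to 398 and 303 (log2FC 3.19, SE 0.27, adjusted p = 0.000458). TYRO3, of the same family as AXL, was downregulated with siADAR1 #2 from 2116 and 1631 to 461 and 719 (log2FC -1.68, SE 0.23, adjusted p = 0.00176).

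**Figure D4:**
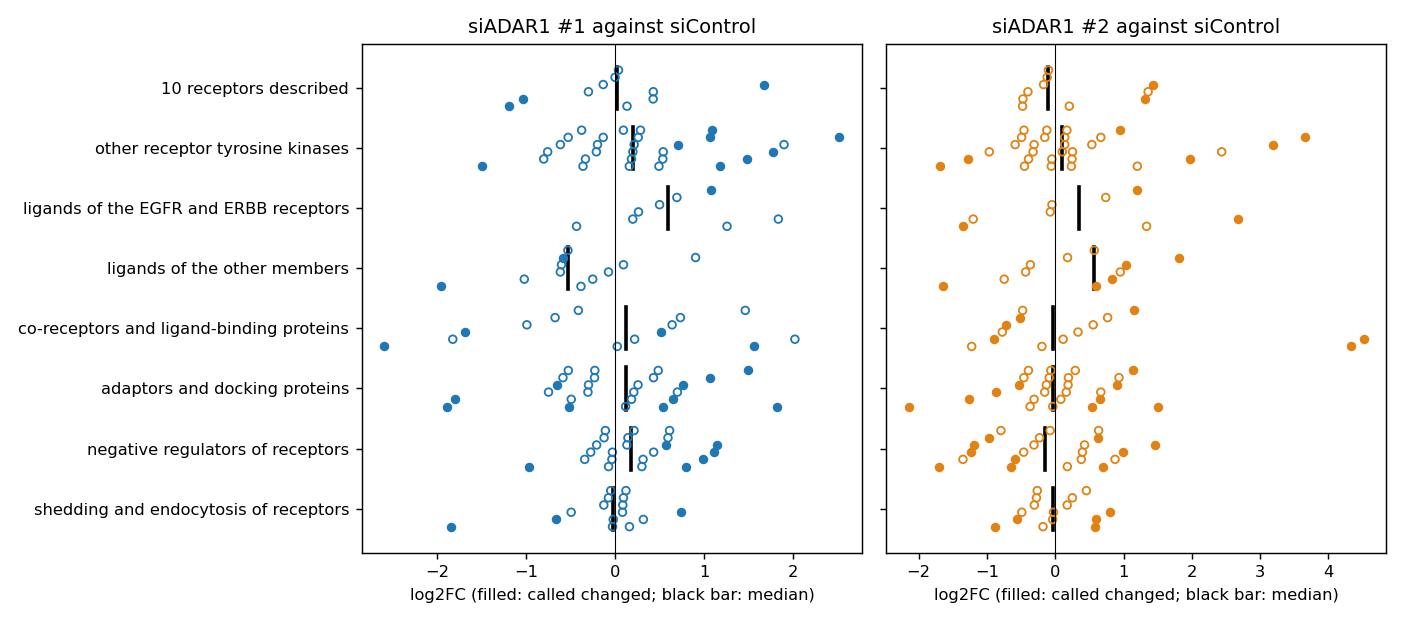
The log2FC against siControl (horizontal axes) of every tested gene of the 10 receptors and 7 further lists with siADAR1 #1 (left) and siADAR1 #2 (right), with filled points for genes called changed and black bars for the list medians. Each list holds points on either side of 0, and the ligands of the other members have a median of -0.53 on the left and 0.57 on the right. Those of the EGFR and ERBB receptors have medians of 0.60 and 0.35.

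MET was the receptor with the smallest adjusted p-value in both comparisons. Over the 6 libraries, the tested genes whose log2 values followed it most closely were LBHD1 (Pearson's r = 0.996), a Metazoa_SRP gene (ENSG00000277900, r = 0.996) and ENSG00000261215, which has no symbol (r = 0.995). LBHD1 had 144 and 193 normalized counts in siControl, 428 and 423 with siADAR1 #1, and 342 and 404 with siADAR1 #2. The other 2 genes had at most 7.14 normalized counts in siControl and at most 31.4 in any library. These coefficients describe 6 libraries of 3 siRNA conditions, chosen as the highest of 20247 genes.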

How the data were processed

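Poly(A)+ RNA of Cal62 cells was sequenced with 75-bp paired-end reads. Within bcbio-nextgen the authors removed adapters (Atropos), ran featureCounts and, in parallel, Salmon on GRCh38, and normalized gene counts with DESeq2. For this the paper states a preference for gene counts that tximport derived from Salmon. Which counts underlie the deposited values is not given in the sources used here. Tool versions are not given in the sources used here. Log2 values deposited by the authors carry a variance-stabilizing transformation, with 0 reads at 0.347736. Undoing it gave the normalized counts. Multiplied by the size factor of the library, these were whole numbers for 100% of the values (tolerance 0.1), called reads here. Estimated counts rounded to whole numbers would look the same. The labels list 1 sample per transfection with 2 columns each, taken as the 2 independent biological replicates of the methods; 0 value columns were left unused.

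The log2 values of genes with a mean of at least 10 normalized counts were fitted with limma 3.58.1 in R 4.3.3 (lmFit, eBayes with trend, two-sided, Benjamini-Hochberg over 20247 genes), with 3 groups, or with the siADAR1 libraries as 1 group. Genes were called at the thresholds of the study, 0.05 for the adjusted p-value and 0.5 in either direction for the log2FC. The members, lists and tests were chosen with earlier results of these data known. Lists were described by counts and medians, with no set test. Named genes are the 10 receptors, ADAR, markers, the 3 tested genes of each list with the smallest adjusted p-value against siControl, and the 3 genes most like the receptor with the smallest adjusted p-value. Positions, exon lengths and overlaps came from GENCODE 44 (symbols for 57830 of 58333 identifiers, none for 503), and promoters from RefSeq. Limits from 3 reads cover counting error only, and with 2 libraries per transfection the replicate number also limits precision. Alternatives were other filters, scalings, models of the spread, log2 of the normalized count plus 1, voom on the recovered reads, fewer libraries, a replicate block, an average of the siRNA changes, and each library left out.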

Additional observations from a re-analysis of the deposited data

Results flagged for a closer look

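The changes against siControl differed between siADAR1 #1 and siADAR1 #2 for 23 of the receptors and list genes named, in the direct test of the difference at an adjusted p-value under 0.05 (limma). The list genes among them had been picked for small adjusted p-values against siControl with either siRNA, which favours such a difference, so their number is not compared with that over all genes. Values are the log2FC with siADAR1 #2 minus that with siADAR1 #1.

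Of the receptors described, EGFR differed by 0.71 (SE 0.12), IGF1R by 0.92 (SE 0.19), ERBB3 by 0.89 (SE 0.27), DDR1 by -0.60 (SE 0.16) and ERBB2 by -0.44 (SE 0.11). Of the other receptors, MST1R differed by 4.46 (SE 0.45), EPHA5 by 3.81 (SE 0.27) and TYRO3 by -1.35 (SE 0.23). Among ligands the difference was 3.77 (SE 0.32) for FGF1, 2.41 (SE 0.25) for AREG, 1.45 (SE 0.18) for FGF2, 1.29 (SE 0.20) for PSPN and -2.42 (SE 0.20) for HBEGF. HBEGF and FGF1 were called in opposite directions with the siRNAs.

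Binding proteins differed by 2.50 (IGFBP3, SE 0.73), 1.57 (IGF2R, SE 0.15) and -0.92 (SDC1, SE 0.14). For adaptors the difference was 2.04 (SE 0.16) for IRS2 and -1.84 (SE 0.24) for NCK2. Regulators and trafficking genes differed by 1.57 (CAV1, SE 0.15), 0.71 (CAV2, SE 0.15), 0.32 (PTPN1, SE 0.10), -0.86 (RAB5A, SE 0.14) and -1.63 (SH3KBP1, SE 0.19). Of the receptors and list genes named, MET, INSR, AXL, FGFR1, RET, EGF, CRK and RNF41 did not pass this test. ADAR itself had a log2FC of 0.35 between the siRNAs (adjusted p = 0.406). The cause of these differences was not tested.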

How the results depend on the processing

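MET kept its direction and calls with each siRNA under all alternatives, as did EGFR with siADAR1 #1. With 1 library left out, 2 to 4 receptors were called for siADAR1 #1, 1 to 3 for siADAR1 #2, 2 to 4 between the siRNAs and 0 to 0 with the siADAR1 libraries as 1 group. Without a trend 2 receptors, EGFR and IGF1R, were called between the siRNAs, and the average of the siRNA changes called 4 in place of 0, since it leaves the difference between siRNAs out of the spread. Of 1338 single-gene values under alternatives, 1252 kept direction and call, 33 lost and 22 gained a call, and 31 changed sign.

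The sign changed for siADAR1 #1 with median-centred libraries in INSR (0.0074), FGFR1 (0.14), SH3KBP1 (0.067) and RAB5A (0.12), with quantile normalization in FGFR1 (0.15), SH3KBP1 (0.022) and RAB5A (0.063), and with voom in FGFR1 (0.044) and RAB5A (0.016). For siADAR1 #2 it changed with quantile normalization in AXL (0.077) and IGF1R (0.027). Median-centring shifted all genes by 0.14 for siADAR1 #1 and -0.10 between the siRNAs. With a library left out, ranges that crossed 0 for siADAR1 #1 were -0.0152 to 0.0895 (ERBB2), -0.30 to 0.035 (INSR), -0.19 to 0.19 (FGFR1), -1.45 to 0.85 (RET), -0.038 to 0.084 (SDC1), -0.16 to 0.0094 (SH3KBP1), -0.11 to 0.063 (RAB5A) and -0.0904 to 0.28 (CAV2). For siADAR1 #2 they were -0.21 to 0.0099 (AXL), -0.27 to 0.034 (IGF1R) and -0.37 to 0.027 (DDR1), and with 1 siADAR1 group -0.042 to 0.092 (AXL), -0.0900 to 0.29 (FGFR1) and -0.0698 to 0.33 (DDR1). Over all genes, 3518 calls for siADAR1 #1 became 312, 1165 and 1291 without siControl replicate 1, siControl replicate 2 and siADAR1 #1 replicate 1, and 1478 without a trend. The 5573 calls for siADAR1 #2 became 3152 without siControl replicate 1 and 3105 without siADAR1 #2 replicate 1.

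Deviations of libraries with the same replicate number correlated at 0.111 (siControl and siADAR1 #1), 0.13 (siControl and siADAR1 #2) and 0.15 (between the siRNAs), and with 2 libraries per transfection the numbers were not taken as pairs. The replicate block gave 3, 2, 4 and 0 calls of receptors, as without it, and 4094 and 6065 genes for the siRNAs; it added calls of FGF2 (adjusted p = 0.0195), IRS2 (0.0269) and IGFBP3 (0.0115) for siADAR1 #1. RET and IGFBP3 were not tested at a filter of 50. Fits of only the 4 libraries compared could not be made for the siADAR1 libraries as 1 group.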
